A study of Arabidopsis thaliana with 8 samples.

Results

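H3K27me3 regions far from genes were those whose midpoint lay more than 1000 bp from every annotated gene of any biotype on chromosomes 1 to 5 of Arabidopsis thaliana. They numbered 2563 of the 27784 H3K27me3 regions called in non-hair cells of the root epidermis, or 9.22% of them (exact 95% interval 8.89 to 9.57). The rule used position only. The longest was 1949 bp, so none of the 2563 reached a base of a gene. The other 25221 H3K27me3 regions, called the rest below, comprised 19017 with a midpoint in a gene and 6204 with a midpoint between genes, within 1000 bp of one. Of these 6204, 2170 (35.0%) overlapped a gene with part of their length. The members just inside the limit were nearest to WRKY12 and AT4G16000, at 1001 bp each, and to FRD3 at 1002 bp, and the regions just outside it were nearest to RR19 and AT2G25500, at 1000 bp each, and to AT1G68280 at 999 bp.

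The regions came from chromatin immunoprecipitation and sequencing of affinity-purified nuclei. All libraries came from the INTACT line in the Col-0 background, which expresses the biotin ligase BirA from the ACT2 promoter and the nuclear tag NTF from the GLABRA2 (GL2) promoter, and from plants aged 10 days. Nuclei were taken from the differentiated zone of the root, without the tip. There was 1 library each for H3K27me3, H3K4me1, H3K4me3, H3K27ac, H2A.Z and histone H3, and of the 2 inputs, not analysed here, one was named for H3K27me3. The nuclei are those in which the GL2 promoter was active enough to tag them, and with 1 library per target no difference between groups of regions has a replicate check. Intervals are exact binomial ones at 95% and cover counting error only. Sequencing depth is not known here.

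Genes that define the cell type gave a mixed check of the label. GL2, a homeodomain regulator of the non-hair fate, had 1311 of its 4485 bp under H3K27me3 together with 412 bp under H3K27ac and 378 bp under H3K4me3. WER, the MYB factor that acts above it, had 0 bp under H3K27me3, 518 bp under H3K27ac and 189 bp under H3K4me3. The root hair gene COBL9 had 1608 of 2647 bp under H3K27me3, with 284 bp under H3K27ac and 0 bp under H3K4me3. EXPA7, an expansin of root hairs, had 482 of 1465 bp under H3K27me3, with 0 bp under H3K27ac and 189 bp under H3K4me3. All 7 genes of the root hair list used below had at least 398 bp under H3K27me3. RSL2, RSL4 and PRP3 had 0 bp of H3K27ac and H3K4me3. RHD6 had 179 bp under H3K27ac and 189 bp under H3K4me3, and RSL1 63 bp under H3K27ac. In the non-hair list, TTG1 and CPC had 0 bp under H3K27me3 and 1017 and 672 bp under H3K27ac. EGL3 had 311 bp under H3K27me3 and 0 bp under H3K27ac, GL3 241 and 309 bp, and MYB23 241 and 179 bp.

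H3K27me3 is laid down by Polycomb repressive complex 2, whose catalytic subunits in Arabidopsis are CLF, SWN and MEA. The mark is known from genes kept silent in a tissue, above all developmental regulators, where it usually covers the transcribed part of a gene. In Arabidopsis, short sequence motifs such as the telobox, GA repeats and CTCC-rich boxes, and the factors that bind them, have been linked to recruitment of the complex.

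Examples of sequence from the far regions show what the mark lay on. The first set gives 100 bases around the copy of each of 4 searched motifs in the regions of most bases that held it. Capitals mark the motif letters on either strand, which were AAACCCT for the telobox core, GAGAGAG for the GA repeat, CTCCTCC for the CTCC box and CACGTG for the G-box. Sequences here are from RefSeq TAIR10.1, whose nuclear chromosomes carry TAIR10 coordinates, and run 5′ to 3′.

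telobox core, region nearest to AT5G17080, chr5:5618245-5618344, plus strand: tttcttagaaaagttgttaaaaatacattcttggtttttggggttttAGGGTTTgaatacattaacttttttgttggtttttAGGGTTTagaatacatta

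telobox core, region nearest to AT1G33780, chr1:12248616-12248715, plus strand: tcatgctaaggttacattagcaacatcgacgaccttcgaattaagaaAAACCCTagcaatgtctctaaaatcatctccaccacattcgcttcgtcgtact

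GA repeat, region nearest to AT5G17080, chr5:5617358-5617457, plus strand: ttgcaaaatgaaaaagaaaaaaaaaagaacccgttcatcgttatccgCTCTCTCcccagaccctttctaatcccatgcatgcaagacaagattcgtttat

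GA repeat, region nearest to AT2G40435, chr2:16885688-16885787, plus strand: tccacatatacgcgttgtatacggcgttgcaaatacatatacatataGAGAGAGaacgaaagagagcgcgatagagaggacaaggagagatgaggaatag

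CTCC box, region nearest to AT2G40435, chr2:16885182-16885281, plus strand: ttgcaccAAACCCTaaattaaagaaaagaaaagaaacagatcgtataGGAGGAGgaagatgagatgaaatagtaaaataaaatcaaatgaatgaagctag

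CTCC box, region nearest to AT1G70949, chr1:26751133-26751232, plus strand: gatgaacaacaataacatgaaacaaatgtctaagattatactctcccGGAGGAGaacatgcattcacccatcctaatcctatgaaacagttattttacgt

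G-box, region nearest to FUM2, chr5:20728085-20728184, plus strand: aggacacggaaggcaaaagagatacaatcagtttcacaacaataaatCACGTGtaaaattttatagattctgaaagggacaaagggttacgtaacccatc

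G-box, region nearest to PTL, chr5:956082-956181, plus strand: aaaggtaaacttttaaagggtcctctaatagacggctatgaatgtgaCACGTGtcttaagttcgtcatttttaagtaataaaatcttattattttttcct

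The next set gives 3 whole regions of the smallest size, 241 bp, in lower case. The first lay farthest from any gene, and the other 2 lay upstream of STM, which maintains the shoot meristem, and of CUC2, which sets organ boundaries; both were chosen after their values were seen.

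farthest region, nearest to AT1G32460, chr1:11728972-11729212, plus strand: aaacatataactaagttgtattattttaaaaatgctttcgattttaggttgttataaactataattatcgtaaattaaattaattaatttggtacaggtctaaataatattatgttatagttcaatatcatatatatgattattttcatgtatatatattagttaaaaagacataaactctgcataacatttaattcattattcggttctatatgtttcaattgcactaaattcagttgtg

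region upstream of STM, chr1:23063256-23063496, plus strand: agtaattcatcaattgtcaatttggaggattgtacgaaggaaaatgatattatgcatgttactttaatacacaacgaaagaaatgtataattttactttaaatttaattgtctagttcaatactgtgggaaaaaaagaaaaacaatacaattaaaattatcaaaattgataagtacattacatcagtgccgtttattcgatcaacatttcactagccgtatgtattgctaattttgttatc

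region upstream of CUC2, chr5:21904908-21905148, plus strand: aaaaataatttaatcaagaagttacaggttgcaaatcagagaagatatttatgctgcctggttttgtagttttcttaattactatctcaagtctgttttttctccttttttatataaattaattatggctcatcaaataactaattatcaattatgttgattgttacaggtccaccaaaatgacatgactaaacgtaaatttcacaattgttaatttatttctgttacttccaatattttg

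These 3 sequences were rich in A and T: GC made up 20.3% of the farthest region, 26.6% of the one upstream of STM and 26.1% of the one upstream of CUC2. Over all far regions the median GC was 31.1%, against 37.1% in the rest and a mean of 30.4% in all sequence more than 1000 bp from a gene, called far sequence here. The far regions thus lay close to far sequence and below the rest in GC. Within the rest, regions with a midpoint between genes had a median of 31.9%, so low GC was not particular to far regions.

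The motifs were counted in 241-bp windows centred on each region, on both strands; copies of different motifs may overlap, and the G-box reads the same on both strands. The GA repeat was in 6.55% of the far windows (5.63 to 7.58), against 9.94% in the rest and 3.74% of windows tiled over far sequence, and in 9.63% of all H3K27me3 windows. The CTCC box was in 1.64% of far windows (1.18 to 2.21), against 6.22% in the rest and 1.07% of far sequence, with 5.80% over all H3K27me3 windows. The telobox core was in 5.66% of far windows, against 8.39% in the rest, 6.50% of far sequence and 8.13% of all H3K27me3 windows. The G-box, bound by bZIP and bHLH factors, was in 3.12% of far windows, against 2.99% in the rest and 2.76% of far sequence, with 3.00% over all. The GA repeat and the CTCC box were thus more frequent in far regions than in far sequence, and both, like the telobox core, were less frequent than in the rest. The interval of the telobox core in far windows (4.79 to 6.62) held the share of far sequence, and that of the G-box (2.48 to 3.87) held the shares of far sequence and of the rest. Windows had a mean GC of 31.3% in far regions, 37.3% in the rest and 30.0% in far sequence, and the part of GC in these shares was not tested. Within 3 Mb of centromeres lay 45.9% of far sequence but 17.0% of far regions. Windows were not matched for this or for repeats, whose part was not tested either.

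Far regions were short. Their median length was 301 bp, against 303 bp in the rest, and they ran from 241 to 1949 bp, against 241 to 3301 bp. The smallest size, 241 bp, held 49.4% of the far regions (47.5 to 51.4), against 46.6% of the rest, with 46.9% over all H3K27me3 regions. Long regions were fewer: 37 far regions reached 1000 bp (1.44%; 1.02 to 1.98), against 720 in the rest (2.85%), and 15.9% reached 500 bp, against 18.5%. Within the rest, 1.95% of regions with a midpoint between genes reached 1000 bp (1.62 to 2.33) and 16.7% reached 500 bp, against 3.15% and 19.1% in genes. The smallest size held 48.7% of those between genes. Few long regions were thus not particular to far regions. In all, the far regions covered 0.922 Mb, which was 8.76% of the bases under H3K27me3.

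**Figure D1:**
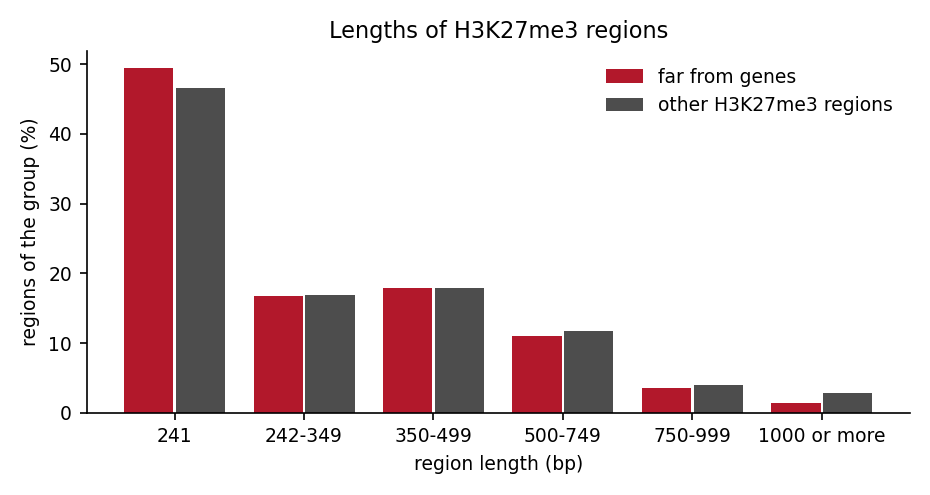
Share of H3K27me3 regions (%) in 6 classes of length (bp), for regions far from genes and for all others. The smallest size of 241 bp holds 49.4% of the far regions and 46.6% of the others, and the class of 1000 bp or more holds 1.44% and 2.85%.

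The plot of lengths shows that both groups had the same shape, with a smaller upper tail far from genes. The longest far region, of 1949 bp at chr5:5617076-5619024, lay 1544 bp on the 5′ side of AT5G17080, which encodes a protein of the cysteine proteinase superfamily, and 1083 bp of that gene were under H3K27me3. The second, of 1878 bp at chr1:12248576-12250453, lay 3284 bp from AT1G33780, a gene with 0 bp under the mark. Regions of 1698 bp near AT2G40435, 1602 bp near AT1G70949 and 1442 bp near EMF1 came next. EMF1 is itself a Polycomb-group protein that represses flowering. A region of 1429 bp lay near FUM2, a fumarase, one of 1386 bp near AT5G27905, and one of 1378 bp upstream of BRN2 (NAC070), a NAC factor of root cap maturation. Of these 8 nearest genes, AT1G33780, AT1G70949 and AT5G27905 had 0 bp under the mark and the other 5 had between 910 and 2073 bp.

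Most far regions lay close to the limit of the rule. The median distance to the nearest gene was 1639 bp. Far sequence, sampled every 20 bp, was also most plentiful near the limit. At 1000 to 1250 bp it held 54438 positions next to genes with at least 200 bp under H3K27me3 and 88809 next to others. At 1500 to 1750 bp these counts were 30692 and 51583. The shares below were not set against those of far sequence, so they describe placement only. A distance of 1000 to 1500 bp was found for 1062 regions (41.4%), 1500 to 2000 bp for 644 (25.1%), 2000 to 3000 bp for 555 (21.7%) and 3000 to 5000 bp for 279 (10.9%), and 23 (0.897%) lay over 5000 bp away. Of the 5 farthest, 4 lay in the same gap between genes on chromosome 1, at 9026, 8670 and 8214 bp from AT1G32460 and at 7328 bp from NRT1.5, a transporter that loads nitrate into the xylem; the other was 7551 bp from AT1G30030.

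Far regions had neighbours nearly as often as the rest. Another H3K27me3 region lay within 500 bp of 53.1% of them (51.2 to 55.1), against 55.6% of the rest, and the median gap to the next region was 457 bp, against 404 bp. No other region lay within 5000 bp of 3.51% of the far regions (2.83 to 4.30), against 7.23% of the rest, so fewer far regions stood alone at that distance. When regions less than 500 bp apart were joined, 1954 of the 17997 stretches held a far region and 1723 of these 1954 held no base of a gene. A stretch that reached into a gene held 339 of the far regions (13.2%). This was so for 18.5% of those whose nearest gene was marked, that is, had at least 200 bp under H3K27me3, and for 5.22% of those whose nearest gene was not. The longest stretch without a gene base ran over 5518 bp at chr5:21590097-21595614 and held 9 regions, 7 of them far, with its edge 376 bp from AT5G53220, a gene with 0 bp under the mark. Others spanned 4361 bp near MYB117, a factor of organ separation, 3421 bp near NGA1, a B3 factor of leaf margins, 3341 bp near AT4G37553 and 3173 bp near AT1G60590.

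Far regions were sparse near centromeres relative to the sequence open to them. Centres of centromeres were set by hand to rounded positions, 15, 4, 14, 4 and 12 Mb on chromosomes 1 to 5, so distances from them are approximate. Centres at the fewest protein-coding bases, up to 1 Mb away, gave 17.5% of far regions in the flanks. Within 3 Mb of the rounded centres lay 435 far regions, or 17.0% of them (15.5 to 18.5), against 11.8% of the rest, with 12.2% over all H3K27me3 regions. The same flanks held 45.9% of far sequence and 25.2% of the genome. Per Mb of far sequence there were 72.1 far regions in the flanks and 299 on the arms. All 5 chromosomes showed this order, with 80.3 in flanks and 325 on arms of chromosome 1, 73.5 and 311 on chromosome 2, 87.1 and 275 on chromosome 3, 59.4 and 280 on chromosome 4, and 57.2 and 286 on chromosome 5.

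**Figure D2:**
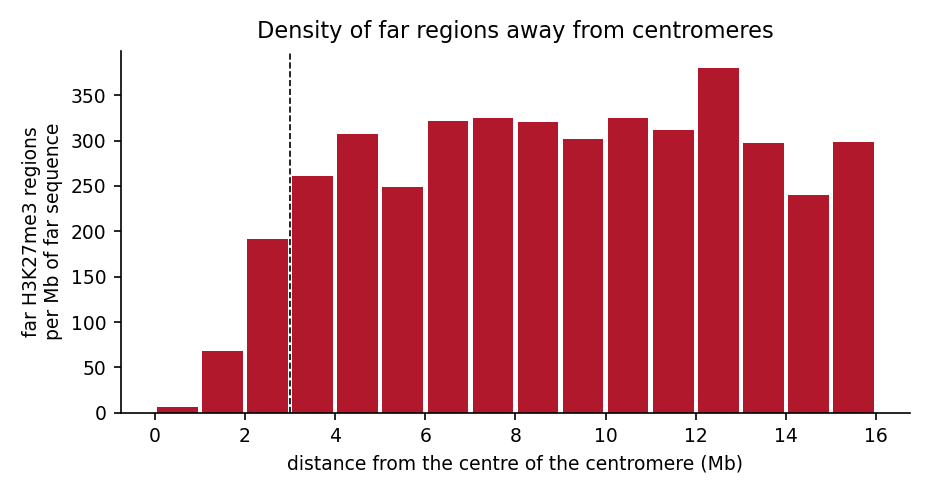
Far H3K27me3 regions per Mb of far sequence (vertical axis) in bins of 1 Mb by distance from the centre of the centromere (Mb), all 5 chromosomes together; the dashed line marks the limit of the flanks at 3 Mb. The density was 6.09 in the first bin, 67.7 in the second and 192 in the third, and lay between 240 and 380 from 4 Mb on.

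The plot of density by distance shows a rise over the first 4 Mb and a level range after that. In the innermost Mb 16 far regions lay on 2.63 Mb of far sequence. Repeats were fewer in far regions than in far sequence. Of far sequence, 18.3% of positions began a 31-base word found more than once in the nuclear and organelle genome. The mean share of such words within a far region was 1.48%. Both values were taken over all distances from the centromere. How reads that map to several places were treated is not given in the sources used here. In far sequence that was neither repeated nor soft-masked, 4.34% of positions in flanks and 12.4% on arms were under H3K27me3, so the order held there; over all far sequence these shares were 2.39% and 10.9%. The part of repeats in the difference that remained was not tested. Far regions in the flanks were also more often of the smallest size, 58.6% against 47.6% on the arms.

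Far regions lay next to genes that carried the mark more often than far sequence did. The nearest gene was marked for 1548 of the 2563 regions, or 60.4% (58.5 to 62.3), against 34.2% of positions in far sequence. For background, 33.5% of all genes were marked and 38.1% of the genes that border a gap of more than 2000 bp, which are the genes that can be nearest to a far region. The difference was smaller on the arms, where 62.4% of far regions and 50.4% of far positions had a marked nearest gene, than in the flanks, where these shares were 50.6% and 15.1%. The nearest gene was protein-coding for 2052 regions (80.1%), against 61.7% of far positions. On the arms it was so for 83.6% of regions (81.9 to 85.1), an interval that held the 84.7% of far arm positions. Of the 2052 regions, 67.8% had that gene marked, against 49.7% of far positions next to a protein-coding gene. For background, 41.9% of all protein-coding genes were marked and 50.3% of the protein-coding genes that border such gaps. On the arms the marked shares were 67.7% of regions and 55.2% of positions. The share of marked nearest genes was 62.3%, 58.2%, 60.2% and 60.2% over the 4 distance bands up to 5000 bp and 39.1% (9 of 23) beyond it.

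On the arms, the mark over far sequence did not thin out steadily with distance from the gene. There 13.7% of far positions next to a marked gene were under H3K27me3, against 8.06% of those next to an unmarked gene. Next to marked genes the share was 13.3% at 1000 to 1250 bp, 13.8% at 2000 to 2500 bp and 12.2% beyond 4000 bp. Next to unmarked genes it was 6.90% at 1000 to 1250 bp, 8.53% at 2000 to 2500 bp and 8.69% beyond 4000 bp. In sequence neither repeated nor soft-masked on the arms, the shares were 15.5% and 9.26%.

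**Figure D3:**
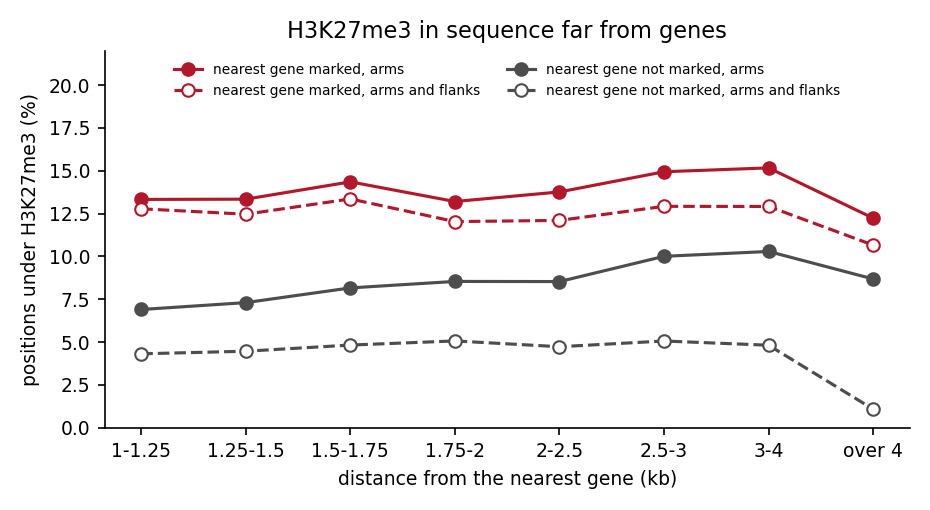
Share of far positions under H3K27me3 (%) by distance from the nearest gene (kb), for positions whose nearest gene was marked and for those whose nearest gene was not; full lines are chromosome arms and dashed lines arms and flanks together. On the arms the marked line lies between 12.2% and 15.2% and the unmarked line between 6.90% and 10.3%, with no steady decline away from the gene.

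The plot of coverage by distance shows marked genes above unmarked ones in every bin, both on the arms and with the flanks included. With the flanks, the share next to unmarked genes was 4.32% at 1000 to 1250 bp and 1.09% beyond 4000 bp. Far regions lay on the 5′ side of the nearest gene in 1682 cases (65.6%), against 60.9% of far positions. On the arms the shares were 66.2% and 65.9%, not measurably apart. In the flanks they were 63.0% (58.3 to 67.5) and 55.0%, and 57.8% in flank sequence neither repeated nor soft-masked. The nearest gene in the flanks was protein-coding for 63.0% of far regions but 34.6% of far positions. Of all far positions next to a protein-coding gene, 66.0% lay on its 5′ side. The part of gene type and repeats in the difference in the flanks was not tested.

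Gaps between genes gave the same order counted over gaps in place of regions. Of 6614 gaps longer than 2000 bp, 1447 held a far region (21.9%). A far region was in 38.5% of gaps with both bordering genes marked (35.7 to 41.2), 27.2% of those with 1 marked (25.5 to 29.0) and 9.63% of those with none (8.56 to 10.8). Within gaps of 2000 to 3000 bp the shares were 16.4%, 11.4% and 3.50%, and in gaps over 6000 bp they were 71.0%, 61.7% and 22.7%, so the order held at like length. It also held where both genes were protein-coding, at 37.7%, 27.2% and 13.5%, and on the arms, at 37.8%, 28.9% and 16.1%. Divergent pairs of genes held a far region in 24.3% of gaps, tandem pairs in 21.4% and convergent pairs in 17.6%; where both genes were protein-coding these were 27.7%, 26.9% and 23.4%, whose intervals overlapped.

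**Figure D4:**
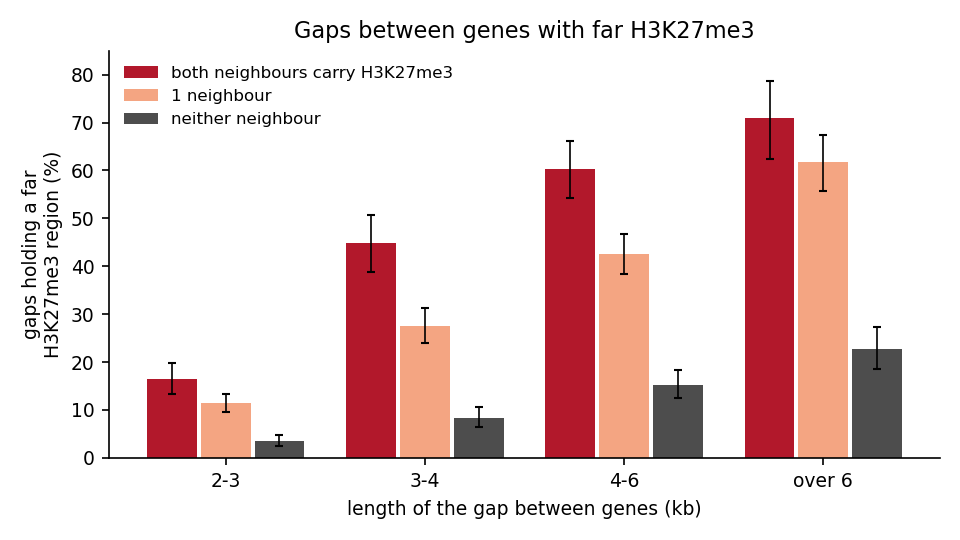
Share of gaps between genes that hold a far H3K27me3 region (%) by length of the gap (kb), for gaps with 2, 1 and 0 bordering genes marked by H3K27me3; error bars are exact 95% binomial intervals. In gaps over 6 kb the shares are 71.0%, 61.7% and 22.7%, and the order is the same in each class of length.

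The plot of gaps shows a step between gaps with a marked neighbour and gaps without one that is wider than the step between 1 and 2 marked neighbours. Counted over regions, 904 far regions (35.3%) lay between 2 marked genes, 1240 (48.4%) had 1 marked neighbour and 418 (16.3%) had none, with 1 region outside any gap between 2 genes. Per Mb of far sequence in these gaps there were 411, 270 and 65.8 far regions, and on the arms 420, 307 and 159. Of the 1015 regions whose nearest gene was not marked, 597 (58.8%) had a marked gene at the other end of the gap. No share of far positions is given for that count, which is a description only. Most gaps with a far region held 1 of them (853 gaps) or 2 (330 gaps). The fullest gap, of 14505 bp between TH7, a thioredoxin, and AT1G59740, a member of the major facilitator superfamily, held 12, which with their neighbours covered 33.0% of its far sequence. The gap of 14001 bp between UCNL and PLT1 held 7. Of the gap between BGLU32 and AT5G24557, 58.0% of the far sequence was covered, by 7 regions.

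The genes next to the most far H3K27me3 were varied in kind. AT1G59740 was nearest to 8 regions with 3101 bp in all and had 1431 bp of its own under the mark. NCED5, an enzyme of abscisic acid synthesis, was nearest to 4 regions with 2394 bp, all on its 3′ side. EMF1 was nearest to 3 regions with 2276 bp, and 2073 of its 5758 bp were under H3K27me3, while 2421 bp were under H3K4me1. SWEET13, a sugar transporter, was nearest to 5 regions with 2253 bp, and STY1, a regulator of style development and auxin synthesis, to 5 regions with 2175 bp. PTL, a trihelix factor that limits growth between sepals, was nearest to 2 regions with 2088 bp and had 3031 of its 3437 bp under the mark. These genes carried the mark in their own bodies as well as far from them.

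Among the 15 genes with the most far bases, AT3G57120, AT4G35070 and nMAT1 were not marked, and each had 0 bp under H3K27me3. AT3G57120, which encodes a protein of the kinase superfamily, was nearest to 3 regions with 2212 bp and had 1055 bp under H3K27ac. AT4G35070 was nearest to 3 regions with 2168 bp. nMAT1, needed for splicing of mitochondrial introns, was nearest to 4 regions with 1889 bp, all on its 3′ side, and had 820 bp under H3K27ac. The other 6 were TH7 (6 regions, 2045 bp), AT5G17080 (1 region, 1949 bp), AT3G44810 of the F-box family (4 regions, 1926 bp), DAD1, a lipase of jasmonate synthesis (2 regions, 1907 bp), and the RNA genes AT1G08297 (5 regions, 2262 bp) and AT1G09273 (4 regions, 1903 bp).

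Developmental regulators were described through 5 lists with 59 genes, of which 44 bordered a gap over 2000 bp and 24 were nearest to a far region. For all genes bordering such gaps that share was 15.8%, for the marked ones 24.3% and for the unmarked ones 10.6%, and 40 of the 44 listed genes were marked. These shares were not matched for length of gap, and far regions were in 9.14% of gaps of 2000 to 3000 bp but in 44.9% of those over 6000 bp. The part of gap length in the share of listed genes was not tested. Of the 19 shoot and floral regulators that bordered a gap, 9 were nearest to a far region. FT, the mobile signal of flowering, had 3 regions with 879 bp from 1695 to 3339 bp away. STM had 2 with 543 bp and the related KNAT1 2 with 482 bp, KNAT2 had 1 of 674 bp, and YAB1, a factor of organ polarity, had 2 with 746 bp. AG and STK, MADS factors of carpels and ovules, had 1 each of 365 and 241 bp, CUC2 had 1 of 241 bp, and TFL1, which delays flowering, had 1 of 733 bp on its 3′ side. The other 10 included WUS, SOC1, AP1, LFY and SEP3, whose own bodies had 1472, 2738, 2492, 1773 and 2138 bp under H3K27me3, and AS1, which had 0 bp.

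Of the 9 regulators of the root tip and root cap, all of which bordered a gap and were marked, 6 were nearest to a far region. PLT1, an AP2 factor of root stem cells, had 4 regions with 1777 bp, all on its 5′ side and up to 4906 bp away. PLT2 had 3 with 1498 bp, BBM 1 of 432 bp, WOX5, which maintains the stem cell niche, 1 of 618 bp, FEZ 2 with 546 bp and BRN2 1 of 1378 bp. Of the embryo and seed genes, 3 of the 5 bordering a gap had far regions. They were LEC2 (542 bp in 2 regions) and FUS3 (482 bp in 2 regions), both B3 factors of seed maturation, and the dormancy gene DOG1 (1 region of 527 bp).

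Genes of the 2 epidermal fates were both represented. Of 5 root hair genes bordering a gap, 3 were nearest to far regions: the bHLH factors RSL4 (3 regions, 949 bp), RHD6 (2 regions, 644 bp) and RSL2 (1 region, 241 bp), which had 1158, 1348 and 398 bp under H3K27me3 themselves. Of 6 listed genes that regulate the non-hair fate and bordered a gap, among them its R3 MYB inhibitor CPC, 3 were nearest to 1 region each. They were TTG1 (365 bp), EGL3 (241 bp) and CPC (241 bp), and TTG1 and CPC had 0 bp of their own under the mark. GL2 was nearest to none.

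Products named as transcription factors were frequent next to far regions. Among the 1451 protein-coding genes nearest to a far region, 191 had such a product (13.2%; 11.5 to 15.0), against 439 of the 6402 other protein-coding genes bordering a gap over 2000 bp (6.86%; 6.25 to 7.50), with 4.54% over all protein-coding genes. Among marked genes the shares were 16.0% and 8.69%. By the widest gap beside the gene, which both shares moved with, they were 6.45% and 5.83% at 2000 to 3000 bp, 10.7% and 6.70% at 3000 to 4000 bp, 14.8% and 8.28% at 4000 to 6000 bp, and 16.1% and 10.3% over 6000 bp. The share was higher next to far regions in each class, but the intervals were apart only at 4000 to 6000 bp (11.9 to 18.1 and 6.79 to 9.97) and overlapped in the other 3.

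MicroRNA genes were nearest to 30 far regions, and none of the 30 counted as marked (0 of 30). Of the 8 of these genes with the most far bases, all but MIR832 (333 bp) were shorter than the 200 bp a marked gene needs, and MIR166a was covered over its whole 170 bp. MIR157a, whose product targets SPL factors, was nearest to 4 regions with 1450 bp, all on its 5′ side. MIR394a had 3 with 1313 bp, MIR164b, which targets CUC genes, 1 of 1078 bp, and MIR166a, which targets class III homeodomain factors, 3 with 844 bp. MIR160b (2 regions, 751 bp) and MIR160a (1 region, 577 bp) target auxin response factors, MIR319c (1 region, 741 bp) targets TCP factors, and MIR832 had 1 of 660 bp. Genes of tRNAs, none longer than 90 bp and so unable to count as marked, were nearest to 26. Long noncoding RNA genes were nearest to 246 far regions (9.60%) and to 40746 of 657664 sampled far positions. The gene was marked for 33.3% of these regions (27.5 to 39.6), against 20.1% of far positions next to such a gene, with 17.0% of the long noncoding RNA genes bordering a gap over 2000 bp. On the arms these were 35.5% of regions and 24.3% of positions. Pseudogenes were nearest to 126 far regions (4.92%) and to 171347 of the sampled far positions, and on the arms to 45 of 2128 regions and 10263 of 355840 positions. Of the 126 regions, 31.0% (23.0 to 39.8) had the pseudogene marked, against 5.50% of far positions next to one, with 7.51% of the pseudogenes bordering such gaps. On the arms these were 60.0% (27 of 45 regions) and 26.8% of positions.

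Most far regions carried no other target. A base of at least 1 other target was shared by 671 (26.2%), against 58.7% of the rest, with 55.7% over all H3K27me3 regions. Of the 671, 514 touched 1 target, 131 touched 2, 24 touched 3 and 2 touched 4. As shares of all far regions these were 20.1%, 5.11%, 0.936% and 0.0780%, against 28.7%, 17.7%, 8.78% and 3.09% of the rest. H2A.Z was the most frequent, at 400 far regions (15.6%), against 36.2% of regions in a gene, with 31.2% over all. H3 was at 212 (8.27%) against 18.5% (15.6% over all), and H3K27ac at 204 (7.96%) against 33.6% (25.8% over all). The methylated forms of lysine 4 were rare, with H3K4me3 at 24 (0.936%) against 18.2% (13.1% over all) and H3K4me1 at 16 (0.624%) against 17.9% (13.0% over all).

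**Figure D5:**
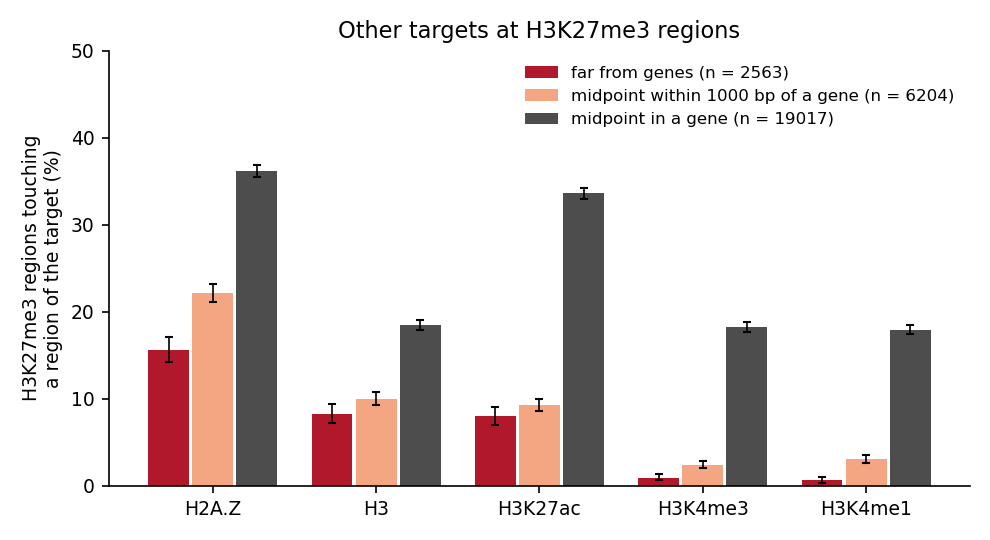
Share of H3K27me3 regions (%) that share at least 1 bp with a region of each other target, for regions far from genes, regions with a midpoint between genes within 1000 bp of one (35.0% of them overlap a gene), and regions with a midpoint in a gene; error bars are exact 95% binomial intervals. The far bars are the lowest for each target, 0.624% for H3K4me1 and 15.6% for H2A.Z.

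The plot of other targets shows that regions with a midpoint within 1000 bp of a gene but outside it, 35.0% of which overlapped a gene, lay nearer to the far regions than to regions in genes, at 22.2% for H2A.Z, 9.96% for H3, 9.27% for H3K27ac, 2.37% for H3K4me3 and 3.03% for H3K4me1. Among regions of the smallest size alone, 21.7% of the far ones (19.5 to 24.1) and 53.6% of the rest touched another target. At that size the share was 63.1% in genes but 25.9% (24.3 to 27.5) with a midpoint between genes within 1000 bp of one. The wide difference at equal length was thus from regions in genes. For H3 at that size the shares were 7.02% far and 6.52% within 1000 bp, with overlapping intervals. Over far regions of all sizes, the state of the nearest gene went with no clear difference in touching another target, at 25.5% where it was marked and 27.2% where it was not. Against the sequence around them, far regions were nonetheless richer in other targets. H2A.Z lay over 7.22% of their bases, against 1.93% of far positions outside H3K27me3 and 3.63% of such positions that were on the arms and neither repeated nor soft-masked. H3 lay over 4.13% of their bases, against 1.67% and 1.39%. H3K27ac lay over 3.54%, against 1.71% and 3.14%, so it was close to its share of such arm sequence.

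H3K27me3 had the highest share of regions far from genes among the 6 targets, 9.22%, against 4.54% for H2A.Z (1390 regions), 4.25% for H3 (994), 3.03% for H3K27ac (1097), 0.788% for H3K4me3 (116) and 0.116% for H3K4me1 (36). Of these far regions, 17.0% lay in the flanks of centromeres for H3K27me3, against 17.0% for H2A.Z, 16.9% for H3K27ac, 27.6% for H3K4me3, 52.8% for H3K4me1 and 57.1% for H3. The share in the flanks was close for H3K27me3, H2A.Z and H3K27ac; finer placement along chromosomes was not compared between targets. The H3K27me3 library had its own input, and whether its regions were called with the settings of the other 5 is not given in the sources used here, so the target and its processing cannot be told apart in these shares.

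Some far regions had 200 bp or more under another target. At least 200 bp lay under H3 in 107 of them, under H2A.Z in 100 and under H3K27ac in 41. The region of 501 bp nearest to AT5G35805 was under H2A.Z over all 501 bp and under H3K27ac over 499 bp. One of 921 bp nearest to AT5G26020 had 600 bp under H3K27ac, and one of 583 bp upstream of PHT1;1, a phosphate transporter of the root, had 439 bp. H2A.Z covered 676 of 716 bp upstream of PPC2, a phosphoenolpyruvate carboxylase, and 464 bp of a region nearest to AT1G33440. H3 covered 575 of 910 bp nearest to PLT2, 536 bp nearest to AT3G20640 and 411 bp nearest to AT3G30335. At least 200 bp of H3K4me3 was found in 1 far region, near AT1G30140 (293 bp), and at least 200 bp of H3K4me1 in 12, led by those near LIS (465 bp), ASL9 (344 bp), AT2G02660 (332 bp), AT1G09115 (254 bp) and AT1G06857 (254 bp). The smallest region was 189 bp for H3K4me3, 254 bp for H3K4me1, 179 bp for H3K27ac, 183 bp for H2A.Z and 211 bp for H3. Counts at 200 bp therefore cannot be compared between targets, and for H3 and H3K4me1 a single region of the smallest size is enough. No shares over all H3K27me3 regions are given for these counts, which are a description only. Both H2A.Z and H3K27ac touched 64 far regions (2.50%) by at least 1 bp, not necessarily at the same bases. No share over all H3K27me3 regions is given for this pair, so the count is a description only.

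Soft-masked sequence, which marks repeats and simple sequence, was common in far regions. On average 27.9% of the bases of a far region were soft-masked, against 18.3% in the rest and 41.9% of far sequence. The mean was 27.2% in regions with a midpoint between genes within 1000 bp of one, and 15.4% in regions in a gene. A region with at least 50% soft-masked bases was found 211 times among far regions (8.23%), against 3.37% in the rest, with 3.82% over all H3K27me3 regions. Within the rest the share was 8.62% with a midpoint between genes within 1000 bp of one and 1.65% in genes, so soft-masking was not particular to far regions. Among far regions it was higher in the flanks (16.1%) than on the arms (6.63%). At least 50% of repeated 31-base words was found in 11 far regions (0.429%), against 0.309% in the rest and 0.320% over all.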

How the data were processed

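Regions enriched for H3K27me3, H3K4me1, H3K4me3, H3K27ac, H2A.Z and H3 were analysed, with 1 library per target. The deposited files of the authors gave start and end positions in base pairs and held no other value, so region scores and depth are unknown here. The tools named, per the submitters' processing notes, are HOMER, Bowtie2, deepTools 2.0 and SAMtools 0.1.19, with build TAIR10; caller settings, control and threshold: not given in the sources used here. More reads can give more or longer regions, and filters on reads that map to several places can leave repeats without regions. The unit of length, coverage and distance is the base pair.

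Genes came from the RefSeq annotation of TAIR10.1 (37899 nuclear genes of any biotype), whose nuclear chromosomes carry the TAIR10 coordinates. A region was far from genes when its midpoint lay more than 1000 bp from the nearest gene. Far sequence was sampled every 20 bp. Repeats were measured by lower-case (soft-masked) bases of the RefSeq sequence and by 31-base words found more than once in the nuclear and organelle sequence. Intervals of shares are Clopper-Pearson binomial (95%, exact) and express counting error alone; neighbouring regions are not independent. There were no replicates and no tests. Named regions were the longest, the farthest, those with the most bases under other targets and those holding each motif; named genes were those nearest to the most bases of far regions, listed regulators and microRNA genes. Members and lists were chosen with earlier results of these data known. Functions were tested on simulated data. Alternatives varied the distance, the genes, the regions, the overlap and the centromere flanks. Python 3.11.15, NumPy 2.4.6, pandas 2.3.3 and SciPy 1.17.1 were used. Mitochondrial regions were left out, and inputs were not analysed here.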

Additional observations from a re-analysis of the deposited data

How the results depend on the processing

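Of 39 alternative values for the 5 main shares, 15 moved by less than their counting interval and 24 by more. Their causes were not tested, other than where the setting itself changes which regions or genes are counted. The share of H3K27me3 regions far from genes was 16.1% at a limit of 500 bp, 3.08% at 2000 bp, 7.64% by nearest edge, 15.4% with protein-coding genes only, 8.78% without regions of the smallest size, 8.04% with regions of at least 500 bp and 8.73% without the flanks of centromeres. The share at the smallest size was 51.4% by nearest edge. The share in the flanks was 23.5% with protein-coding genes only, 13.9% without the smallest size, 13.7% with regions of at least 500 bp, 19.2% with regions joined and 5.62% with flanks of 2 Mb. The nearest gene was marked for 62.4% without the flanks, 57.3% with regions joined and 66.4% where 1 bp marked a gene. It was marked for 52.5% without the smallest size, 37.5% with regions of at least 500 bp and 26.7% where 50% of the gene's length had to be covered, rules under which 25.6%, 13.1% and 10.7% of the genes bordering gaps were marked, so the difference kept its direction. Another target was touched by 33.1% with protein-coding genes only, 21.7% without H3 and 12.3% where 50% of the region had to be shared. It was touched by 13.0% without the smallest size and 1.23% with regions of at least 500 bp; both settings removed short regions of the other targets too. No paired analysis was possible because each target had 1 library. Unknown depth and unstated treatment of reads in repeats limit what can be said of regions near centromeres.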
